A study of Mus musculus with 48 samples.

Results

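The 33 genes described here are Trp53, which encodes the transcription factor p53, and 32 genes known as its targets or regulators. They come from a list of known p53 genes whose rule uses no expression value, although the list was made with earlier results of these data known. All 33 were found among the 47561 genes of the expression table, and all 33 passed the filter on low values in every comparison. RNA was sequenced from whole lung of 48 adult mice, with 3 mice in each of 16 groups that combined strain (C3H/hen or C57Bl/6, called C3H and C57B), sex, injection and air. Each mouse received a single intraperitoneal injection of saline or of 25 mg/kg ATG (aurothioglucose, a gold drug whose known target is thioredoxin reductase), and then spent 96 h in room air or in hyperoxia of more than 95% oxygen. None of the groups carried a transgene or deletion in the labels. The sources used here name the substrain of the C57Bl/6 mice in more than 1 way, so none is given here, and the labels give no batch or date. Values are FPKM, that is, fragments scaled to the length of the transcript and to the mapped total of the library, and a log2 change is a difference of mean log2(FPKM + 1).

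p53 is held at a low level by the ubiquitin ligase Mdm2 and its partner Mdm4, and it is released when DNA damage or other stress changes these proteins. It then binds pairs of a short half-site near its targets and raises their transcription. The products stop the cell cycle, favour apoptosis, repair DNA, limit metabolism and, through Mdm2 itself, close a feedback loop. High oxygen is known to damage DNA in lung epithelium and to activate p53, whose protein is controlled mostly after translation, so Trp53 RNA is not a measure of p53 activity.

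The promoters are shown first because the half-site is the sequence that p53 binds near its targets. Binding at the stretches printed here was not tested. RefSeq promoter windows of 300 bases (250 before and 50 after an annotated start, build GRCm38.p6) were found for 25 of the 33 members. The half-site, a 10-base palindromic motif that reads the same on both strands and was searched on both, was present without mismatch in a window of 10 of the 25 members (40.0%), against 9.55% of the 27025 genes with a window. A pair of half-sites separated by at most 13 bases and with at most 1 mismatch in its 20 bases was present in 5 of the 25 (20.0%), against 1.24% of all genes. Since the genes were named as p53 targets, these shares describe the choice of genes. Stretches from 8 of the 10 are printed 5′ to 3′ on the strand of the gene. Capitals mark exact half-sites and the half-sites of the best pair found. In the Cdkn1a stretch the 10 bases directly after the last capitals also match with 1 mismatch and are left in lower case. For Ccng1, Bax, Polk and Rps27l, 1 of the 2 half-sites in capitals has 1 mismatch, and for the others the half-sites in capitals are exact. The Polk, Sesn1 and Rps27l stretches lie within the gene upstream of an alternative start and outside annotated exons, and the other stretches lie upstream of the gene.
Trp53, chr11:69580272-69580305, plus strand: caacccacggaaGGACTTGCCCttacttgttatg
Mdm2, chr10:117710923-117710956, minus strand: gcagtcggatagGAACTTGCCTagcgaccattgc
Cdkn1a, chr17:29090894-29090949, plus strand: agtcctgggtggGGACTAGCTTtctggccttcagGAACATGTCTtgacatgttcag
Ccng1, chr11:40755450-40755493, minus strand: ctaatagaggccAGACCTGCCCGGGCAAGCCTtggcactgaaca
Bax, chr7:45467078-45467122, minus strand: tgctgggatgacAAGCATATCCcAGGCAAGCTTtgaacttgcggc
Polk, chr13:96519386-96519430, minus strand: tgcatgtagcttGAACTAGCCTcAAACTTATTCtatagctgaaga
Sesn1, chr10:41887254-41887287, plus strand: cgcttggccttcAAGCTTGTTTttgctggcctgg
Rps27l, chr9:66946284-66946327, plus strand: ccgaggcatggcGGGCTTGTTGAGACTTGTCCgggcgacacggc

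All 33 members are protein coding in GENCODE M21. Cdkn1a lies at chr17:29090976-29100727 on the plus strand, Mdm2 at chr10:117688875-117710758 on the minus strand, Trp53 at chr11:69580359-69591873 on the plus strand and Bax at chr7:45461697-45466898 on the minus strand (GRCm38). For 5 members more than 10% of the 30-base sequences of their transcripts also occur in transcripts of other genes, so that reads could have been divided: Rps27l (16.3%), Mdm4 (14.1%), Tnfrsf10b (11.4%), Bax (11.3%) and Trp53 (10.6%). Exons of Bax overlap a gene on the same strand, and exons of Cdkn1a, Plk3, Ei24, Sulf2, Ddb2 and Rrm2b overlap a gene on the opposite strand. The use of strand in the counting is not given in the sources used here, so the values of these members may hold reads of their neighbours.

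Summed FPKM over all genes lay between 510933 and 748290 in the 48 lungs, and the number of reads behind the values is unknown. Markers of the lung were present, and the club cell gene Scgb1a1 alone took 10.4% to 30.2% of the summed FPKM in saline mice in room air and 1.20% to 6.46% in saline mice in hyperoxia. Between these arms, 4 of 5 alveolar type 2 markers fell and 1 rose, with a summed level of 25381 to 48867 FPKM, then 5697 to 21494 FPKM. All 3 club markers fell (69658 to 230687, then 6935 to 42120), and all 5 neutrophil markers rose (135 to 774, then 161 to 6265). Of all genes tested, 28.3% fell and 31.8% rose. By strain, 1 of 5 neutrophil markers rose in C3H (median sum 187 FPKM, then 205 FPKM) and 3 of 5 in C57B (460 FPKM, then 3054 FPKM). Of all genes, 25.3% rose in C3H and 25.5% in C57B. A strain difference in the hyperoxia effect passed for 0 of the 5 neutrophil markers (smallest adjusted p = 0.689 by limma). None of the markers of these cell types was at 0 in all mice. In bulk lung, fewer cells of a type and less RNA per cell cannot be told apart, and the part of these shifts in the changes below was not tested. Mice 1 and 3 of the C3HM saline room air group stood apart from the rest of that arm, for instance with Aen at 1.84 and 2.70 FPKM against 6.10 to 11.1 FPKM in the others and Apaf1 at 14.5 and 10.8 FPKM against 3.14 to 8.34 FPKM. Results that rest on them are given with and without them.

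The first comparison asked how the p53 program differed between hyperoxia and room air in the 24 saline mice. By limma with Benjamini-Hochberg adjustment over all genes tested, 24 of the 33 members rose (31.8% of all 16321 genes tested rose), 5 fell (28.3% of all genes) and 4 did not pass the threshold of 0.05. The members' median log2 change was 0.77, against 0.01 over all genes. For 15 members every mouse in hyperoxia was above every mouse in room air (5.61% of all genes), and for 0 members every mouse was below (2.13% of all genes). Summed over the members, FPKM was 708 to 988 in room air and 2422 to 3076 in hyperoxia, so that the arms did not overlap. Cdkn1a, the largest change among the members, made up 2.98% to 7.16% of this sum in room air and 19.7% to 30.1% in hyperoxia. By role, all 5 cell cycle brakes, all 6 death receptor and membrane genes and all 3 RNA, ribosome and autophagy genes rose. The genes grouped under the mitochondrial death pathway (4 of 7 rose, 1 fell), DNA repair genes (2 of 5 rose, 2 fell) and metabolism genes (2 of 4 rose, 2 fell) were mixed. These sets are small, and whether they differ was not tested.

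**Figure D1:**
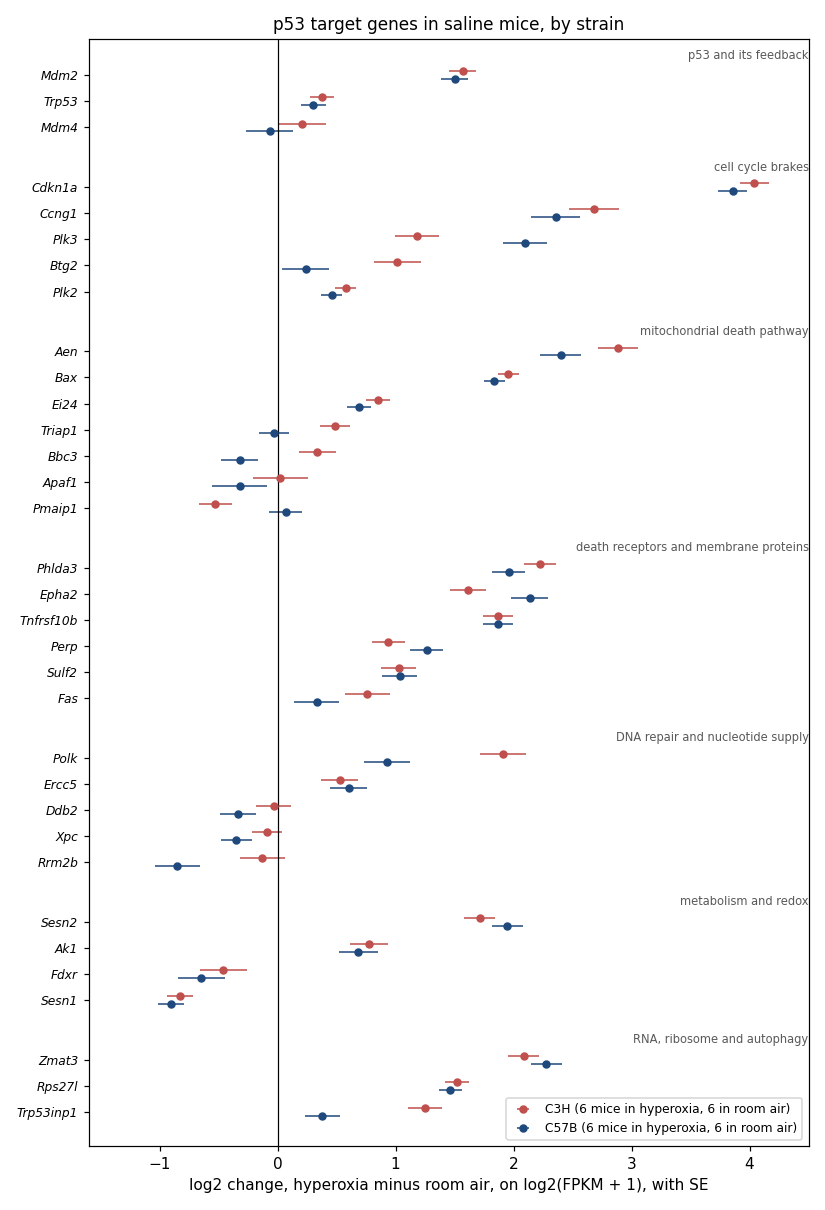
The log2 change between hyperoxia and room air of each of the 33 members, on log2(FPKM + 1), in saline mice, with C3H in red and C57B in blue, 6 mice per strain and air, and bars giving the SE. Genes are grouped by role and ordered by their change over both strains; Cdkn1a lies farthest right (4.04 in C3H and 3.86 in C57B), and Sesn1 lies left of 0 in both strains (-0.82 and -0.90).

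p53 itself changed little in RNA beside its targets. Trp53 in saline mice ranged from 20.3 to 31.9 FPKM in room air (median 24.7, n = 12) and from 28.5 to 39.7 FPKM in hyperoxia (median 31.7, n = 12). The ranges overlapped, and the rise of 0.34 ± 0.07 (SE) on the log2 scale passed the limma test (adjusted p = 0.000438). Mdm2, the feedback inhibitor, ranged from 13.1 to 31.0 FPKM in room air (median 23.8) and from 59.1 to 90.7 FPKM in hyperoxia (median 68.5). No mouse in hyperoxia was as low as any in room air, and the log2 change was 1.54 ± 0.08 (adjusted p = 5.58e-12 by limma). Mdm4, the other inhibitor, did not pass the threshold (0.07 ± 0.14, adjusted p = 0.690 by limma), with 2.66 to 10.2 FPKM in room air and 4.75 to 10.6 FPKM in hyperoxia.

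Among the cell cycle brakes, Cdkn1a, which encodes the cyclin-dependent kinase inhibitor p21, ranged from 26.8 to 66.6 FPKM in room air (median 38.3) and from 508 to 839 FPKM in hyperoxia (median 601). The lowest mouse in hyperoxia was far above the highest in room air, the ratio of mean FPKM was 15.4, and the log2 change was 3.95 ± 0.09 (adjusted p = 3.59e-17 by limma). By mean level Cdkn1a was 6th among the 33 members in room air and 1st in hyperoxia. Ccng1, a cyclin that works with the phosphatase acting on Mdm2, ranged from 25.9 to 61.6 FPKM in room air (median 39.4) and from 124 to 327 FPKM in hyperoxia (median 275). These arms did not overlap either, and Ccng1 rose by 2.52 ± 0.15 (adjusted p = 2.27e-11 by limma). The stress kinase Plk3 rose by 1.64, from 2.13 to 6.83 FPKM in room air to 7.41 to 27.3 FPKM in hyperoxia. The antiproliferative gene Btg2 (0.63) and the kinase gene Plk2 (0.52) rose with overlapping arms.

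**Figure D2:**
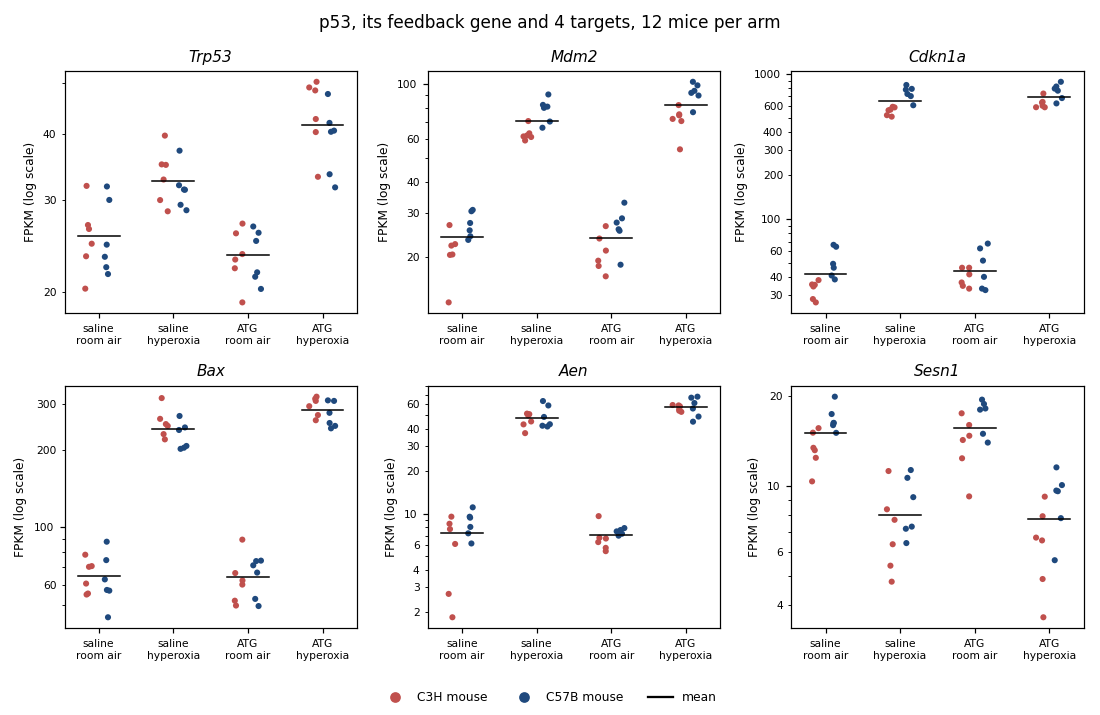
FPKM (log scale) of Trp53, Mdm2, Cdkn1a, Bax, Aen and Sesn1 in each of 48 lungs, in saline and ATG mice in room air and hyperoxia; red points are C3H mice, blue points C57B mice and lines the arm means. Cdkn1a, Mdm2, Bax and Aen in hyperoxia sit above every mouse in room air, Trp53 overlaps between the saline arms and Sesn1 is lower in hyperoxia.

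The members grouped here under the mitochondrial death pathway do not all act at mitochondria. Among them the pore-forming protein gene Bax and the nuclease gene Aen rose, while the BH3-only genes did not. Bax ranged from 44.8 to 88.1 FPKM in room air (median 61.7) and from 202 to 317 FPKM in hyperoxia (median 241), with a log2 change of 1.90 ± 0.06 (adjusted p = 1.36e-14 by limma). Aen, an exonuclease that degrades DNA in dying cells, ranged from 1.84 to 11.1 FPKM in room air (median 7.92) and from 37.3 to 63.0 FPKM in hyperoxia (median 46.8), a log2 change of 2.64 ± 0.12 (adjusted p = 7.67e-13 by limma). Neither pair of arms overlapped. Ei24, a membrane protein of the endoplasmic reticulum, rose by 0.77. Triap1, which restrains apoptosis, rose by 0.23 ± 0.09 (adjusted p = 0.0330 by limma), and this call was lost without mice 1 and 3 (0.08, adjusted p = 0.274), after quantile normalization and without any 1 of 10 single mice. The BH3-only genes Bbc3 (PUMA) and Pmaip1 (Noxa) stand for direct killing signals, and Apaf1 for the apoptosome. Bbc3 gave 0.01 ± 0.11 (adjusted p = 0.954 by limma), with 8.58 to 16.1 FPKM in room air and 7.44 to 17.1 FPKM in hyperoxia. Pmaip1 fell by 0.23 ± 0.10 (adjusted p = 0.0487 by limma), with 4.40 to 9.88 FPKM and then 3.82 to 9.21 FPKM, and the call was lost without mice 1 and 3 (adjusted p = 0.0752) and without any 1 of 18 single mice of 24. Apaf1 gave -0.15 ± 0.16 (adjusted p = 0.454 by limma) and 0.14 without these mice.

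All 6 genes for death receptors and membrane proteins rose. Phlda3, an inhibitor of Akt at the membrane, ranged from 36.9 to 65.7 FPKM in room air (median 44.9) and from 153 to 299 FPKM in hyperoxia (median 207), a log2 change of 2.09 ± 0.10 (adjusted p = 8.35e-13 by limma). Tnfrsf10b, the mouse TRAIL receptor, had the lowest mean of the 33 members in room air, with 1.62 to 4.02 FPKM (median 2.71), and reached 9.10 to 15.3 FPKM in hyperoxia (median 13.1). Its log2 change was 1.87 ± 0.09 (adjusted p = 1.07e-12 by limma), while the ratio of mean FPKM was 4.54, since the pseudocount of 1 lowers the change of low genes. Epha2, an ephrin receptor, ranged from 11.5 to 31.1 FPKM in room air (median 18.5) and from 52.9 to 97.2 FPKM in hyperoxia (median 73.0), a change of 1.87 ± 0.11 (adjusted p = 2.09e-11 by limma). Both arms of each of these genes were apart, as were those of Perp (1.10), a junction protein that takes part in apoptosis, and Sulf2 (1.03), a heparan sulfate sulfatase. The death receptor gene Fas rose by 0.55 ± 0.13 with overlapping arms, from 9.77 to 29.3 FPKM in room air to 21.8 to 47.7 FPKM in hyperoxia.

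The DNA repair genes moved in different directions. Polk, a translesion polymerase, ranged from 1.44 to 5.27 FPKM in room air (median 4.08) and from 5.23 to 17.8 FPKM in hyperoxia (median 13.2), a rise of 1.42 ± 0.14, and the nuclease gene Ercc5 rose by 0.56. Rrm2b, the ribonucleotide reductase subunit that supplies nucleotides for repair, fell by 0.49 ± 0.14 (adjusted p = 0.00388 by limma), from 4.34 to 13.5 FPKM in room air (median 11.2) to 4.32 to 10.3 FPKM in hyperoxia (median 7.31). The lowest Rrm2b values in room air were those of mice 1 and 3, and without them the fall was -0.70. Xpc, a sensor of bulky DNA damage, fell by 0.22 ± 0.09 (adjusted p = 0.0445 by limma), with 7.66 to 11.5 FPKM in room air and 5.15 to 11.8 FPKM in hyperoxia, and this call was lost without the filter on low values (adjusted p = 0.0585) and without any 1 of 15 single mice. Its partner Ddb2 gave -0.18 ± 0.11 (adjusted p = 0.144 by limma), with 3.52 to 6.60 FPKM and then 2.80 to 6.41 FPKM, and passed the threshold after median ratio scaling (-0.24, adjusted p = 0.0395).

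The sestrins, which restrain mTORC1 and limit oxidant stress, moved in opposite directions. Sesn2 ranged from 2.38 to 6.27 FPKM in room air (median 4.05) and from 12.4 to 26.3 FPKM in hyperoxia (median 17.1), a rise of 1.83 ± 0.09 (adjusted p = 3.38e-12 by limma). Sesn1 ranged from 10.4 to 20.0 FPKM in room air (median 15.4) and from 4.79 to 11.3 FPKM in hyperoxia (median 7.52), a log2 change of -0.86 ± 0.08 (adjusted p = 1.23e-08 by limma). Sesn2 did not overlap between the arms, and Sesn1 overlapped only slightly, with all 3 mice in hyperoxia below all 3 in room air in 7 of 8 pairs of groups that shared strain, sex and injection and overlapping mice in the other pair. Fdxr, the ferredoxin reductase of mitochondria, fell by 0.55 ± 0.14 (adjusted p = 0.00192 by limma), from 2.42 to 8.94 FPKM in room air (median 4.45) to 1.49 to 5.24 FPKM in hyperoxia (median 2.92). Ak1, an adenylate kinase, rose by 0.73.

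The remaining members act on RNA, the ribosome and autophagy, and all of them rose. Zmat3, an RNA-binding protein that affects splicing, ranged from 1.78 to 4.15 FPKM in room air (median 3.25) and from 12.8 to 23.8 FPKM in hyperoxia (median 18.0), a change of 2.18 ± 0.09 (adjusted p = 3.80e-13 by limma). Rps27l, a ribosomal protein paralog, had the highest mean of the members in room air, with 150 to 251 FPKM (median 203), and reached 496 to 638 FPKM in hyperoxia (median 556), a change of 1.49. Neither gene overlapped between the arms. Trp53inp1, which promotes autophagy and p53 phosphorylation, rose by 0.81, from 8.87 to 19.2 FPKM to 15.2 to 34.3 FPKM.

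Genes around the members were described from 3 other lists of p53 biology. Of 29 further p53 targets, 13 rose and 8 fell in saline mice (31.8% and 28.3% of all genes did), with a median log2 change of 0.19. Among the rises were those of the stress cytokine Gdf15 (5.47), the matrix protein Thbs1 (2.90) and the 14-3-3 protein gene Sfn (2.47), and the largest falls were in Steap3 (-1.25), Pank1 (-1.14), Fancc (-1.11) and Crip2 (-0.90). Of 19 regulators of p53 tested, 7 rose and 5 fell (median 0.11), shares close to those of all genes (31.8% and 28.3%), among them the p53-binding inhibitor Ppp1r13l (1.15), the kinase Hipk2 (0.80), the deubiquitinase Usp7 (0.47) and the kinase Atr (0.38) above, and Cdkn2a (-1.11), Trp53bp2 (-0.89), and the kinases Chek1 (-0.47) and Prkdc (-0.32) below. Of 22 cell cycle genes tested that p21 is known to repress through the DREAM complex, 1 rose (Tyms, 0.50) and 14 fell (median -0.40, against 28.3% of all genes falling), with Top2a (-1.11), E2f1 (-0.88), Cenpa (-0.81) and Birc5 (-0.67) lowest. By strain, 3 of the 22 fell in C3H (median -0.17, 12.5% of all genes) and 18 fell in C57B (median -0.59, 30.0% of all genes). The strain difference itself passed for 2 of the 22, where 11.5% of all genes passed. At an unadjusted p under 0.05 in limma it was 12 of the 22, against 28.0% of all genes. The median difference, C3H change minus C57B change, was 0.53 for the 22 and 0.15 over all genes. In ATG mice 6 fell (26.0% of all genes).

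The second question was whether the strains differed in this response. In saline C3H mice 24 members rose (25.3% of all genes) and 2 fell (12.5%), and in saline C57B mice 21 rose (25.5%) and 4 fell (30.0%). The largest rises in C3H were those of Cdkn1a (4.04), Aen (2.89), Ccng1 (2.68), Phlda3 (2.22), Zmat3 (2.09) and Bax (1.96), and Sesn1 (-0.82) and Pmaip1 (-0.53) fell. In C57B they were those of Cdkn1a (3.86), Aen (2.40), Ccng1 (2.36), Zmat3 (2.28), Epha2 (2.14) and Plk3 (2.10), and Sesn1 (-0.90), Rrm2b (-0.85), Fdxr (-0.65) and Xpc (-0.35) fell. All 21 members that rose in C57B also rose in C3H, and 1 member, Sesn1, fell in both. Btg2, Fas and Triap1 passed as rises in C3H only, and none of them passed the direct test of a strain difference. Over all genes, 4130 rose and 2039 fell in C3H, and median ratio scaling made this 2912 and 3111. The difference between the strains was tested directly, and 3 members passed (11.5% of all genes did). Over all genes the C3H change exceeded the C57B change by a median of 0.15, which median ratio scaling brought to 0.00, and 5 members passed under that scaling. The 1880 genes that passed were split into 1422 with a positive difference (C3H change minus C57B change) and 458 with a negative one, and into 926 and 1066 after the scaling. Cell markers moved in the same comparison: all 3 club markers, all 4 T cell markers and 3 of 4 B cell markers had a positive difference, with medians of 2.06, 1.03 and 1.14. The summed club markers were 69658 to 230687 FPKM in C3H and 97371 to 166708 FPKM in C57B in room air, and 27212 to 42120 FPKM and 6935 to 17436 FPKM in hyperoxia. The T cell sums were 19.7 to 41.8 and 36.4 to 59.6 FPKM in room air and 14.5 to 32.3 and 8.28 to 21.8 FPKM in hyperoxia, and the B cell sums 19.0 to 60.3 and 70.5 to 100.1 FPKM, then 14.0 to 20.2 and 13.4 to 28.9 FPKM. None of these markers was at 0 in all mice, and their part in the strain differences was not tested.

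Plk3 in C3H mice ranged from 3.08 to 6.83 FPKM in room air (median 4.62, n = 6) and from 7.41 to 27.3 FPKM in hyperoxia (median 9.98), and in C57B mice from 2.13 to 4.71 FPKM (median 2.94) and from 12.3 to 20.6 FPKM (median 17.1). Its log2 rise was smaller in C3H by 0.91 ± 0.26 (-0.91, adjusted p = 0.0303 by limma), although 1 C3H female reached the highest value of all. Polk in C3H mice ranged from 1.44 to 5.27 FPKM in room air (median 3.66) and from 11.3 to 17.8 FPKM in hyperoxia (median 15.3), and in C57B mice from 3.72 to 5.12 FPKM (median 4.12) and from 5.23 to 13.7 FPKM (median 8.37). Polk rose more in C3H, by 0.99 ± 0.28 on the log2 scale (adjusted p = 0.0263 by limma). Trp53inp1 in C3H mice ranged from 8.87 to 13.2 FPKM in room air (median 11.8) and from 16.8 to 34.3 FPKM in hyperoxia (median 29.8), and in C57B mice from 15.1 to 19.2 FPKM (median 17.3) and from 15.2 to 30.7 FPKM (median 23.2). It too rose more in C3H, by 0.87 ± 0.21 (adjusted p = 0.0110 by limma). Without mice 1 and 3 none of the 3 passed: the values were -0.91 (adjusted p = 0.0732), 0.66 (adjusted p = 0.134) and 0.70 (adjusted p = 0.0608), and 1 other member passed, Apaf1 (0.91, adjusted p = 0.0235). The Plk3 call was also lost without the filter on low values (adjusted p = 0.0506) and without any 1 of 9 single mice, and the Polk call without 1 C3H female in hyperoxia (replicate 32, adjusted p = 0.0516).

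**Figure D3:**
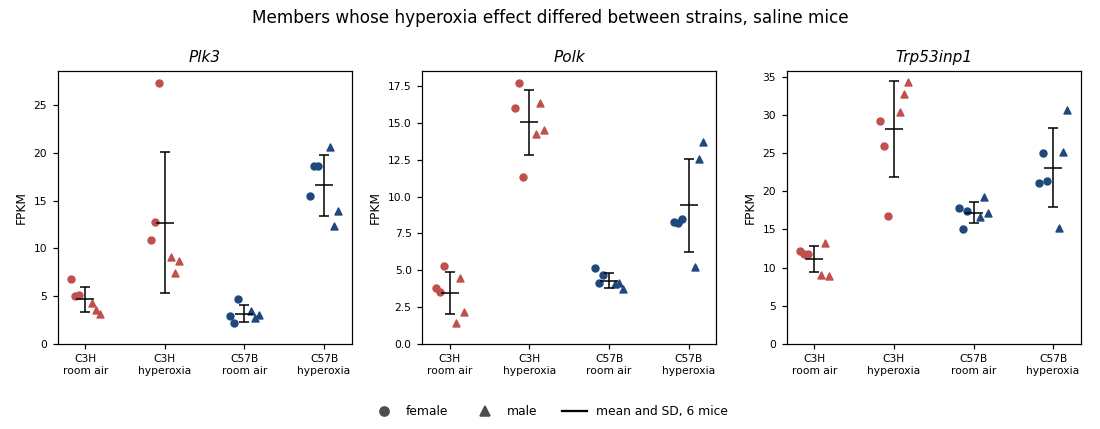
FPKM of Plk3, Polk and Trp53inp1 in each saline mouse by strain and air, with circles for females, triangles for males, and the mean and SD of 6 mice. Plk3 reaches a median of 9.98 FPKM in C3H and 17.1 FPKM in C57B in hyperoxia, Polk 15.3 and 8.37 FPKM, and Trp53inp1 in room air has medians of 11.8 FPKM in C3H and 17.3 FPKM in C57B.

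Most members gave no strain difference past the threshold, with intervals of unequal width. For Cdkn1a the difference was 0.18, with a 95% interval from -0.19 to 0.56 on the log2 scale, and for Mdm2 it was 0.07, from -0.27 to 0.41. For Bax the interval ran from -0.14 to 0.38, and for Tnfrsf10b the difference was 0.00, from -0.37 to 0.37. Wider intervals were those of Apaf1 (-0.34 to 1.03) and Ccng1 (-0.29 to 0.94). For 6 members that did not pass the adjusted threshold the unadjusted interval lay on 1 side of 0: Btg2 (0.18 to 1.37), Rrm2b (0.16 to 1.28), Bbc3 (0.20 to 1.12), Triap1 (0.15 to 0.89), Pmaip1 (-1.01 to -0.19) and Epha2 (-0.98 to -0.069). Together with those that passed, 9 members had an unadjusted p under 0.05 in limma (27.3% of the members and 28.0% of all genes). This count is therefore not particular to the members. Pmaip1 (-0.60, adjusted p = 0.0524) and Bbc3 (0.66, adjusted p = 0.0567) came nearest to the threshold without passing it in limma.

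Within room air, 3 members differed between strains in the 12 saline mice (11.8% of 15546 genes tested, of which 609 were higher and 1223 lower in C3H, against 929 and 1008 after median ratio scaling). Pmaip1 was higher in C3H, with 7.71 to 9.88 FPKM against 4.40 to 6.29 FPKM in C57B (0.61 ± 0.11, adjusted p = 0.00336 by limma). Trp53inp1 was lower in C3H, with the values given above (-0.60 ± 0.11, adjusted p = 0.00395 by limma). For both genes the 6 mice of each strain were apart. Cdkn1a was lower in C3H, with 26.8 to 38.1 FPKM against 38.5 to 66.6 FPKM, a narrow gap (-0.59 ± 0.16, adjusted p = 0.0297 by limma), and this call was lost without mice 1 and 3 (-0.49, adjusted p = 0.149), without the filter on low values, after median ratio scaling (-0.48) and without any 1 of 8 single mice of 12. Apaf1 passed without mice 1 and 3 (-0.76, adjusted p = 0.0185).

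In hyperoxia, 4 members differed between the saline mice of each strain (27.2% of all genes, with 2632 higher and 1809 lower in C3H, against 2269 and 2444 after median ratio scaling). Perp was lower in C3H, with 25.2 to 42.9 FPKM against 41.6 to 62.1 FPKM (-0.73 ± 0.14, adjusted p = 0.000598 by limma), and Cdkn1a was again lower, with 508 to 593 FPKM against 608 to 839 FPKM and no overlap (-0.41 ± 0.13, adjusted p = 0.0202 by limma). The Cdkn1a call was lost after quantile normalization (-0.35, adjusted p = 0.0556). Polk was higher in C3H (0.67 ± 0.20, adjusted p = 0.0152 by limma), as was Plk2, with 49.3 to 62.1 FPKM against 40.1 to 56.3 FPKM (0.27 ± 0.09, adjusted p = 0.0277 by limma). The Plk2 call was lost without any 1 of 6 single mice and after median ratio scaling (0.20, adjusted p = 0.120), under which 1 member was higher and 7 were lower in C3H, where the unscaled values gave 2 and 2.

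Sex was compared in the same way, and 0 members passed the test of a sex difference in the hyperoxia effect by limma (0.0368% of all genes did), with 9 at an unadjusted p under 0.05 (27.3% of the members and 18.2% of all genes). The nearest was Sesn2, whose rise was larger in males by 0.80 (95% interval 0.41 to 1.20, adjusted p = 0.106). Sesn2 in room air was 4.59 to 6.27 FPKM in the females, and 2.38 to 3.50 FPKM in the males. The female and male values did not overlap, but the sex comparison in room air gave -0.61 with an adjusted p of 0.0505 in limma, which missed the threshold and passed it narrowly without the mean-variance trend. In that comparison 0 members passed by limma (0.669% of all genes, 37 higher and 67 lower in males, against 37 and 38 after median ratio scaling), with 9 at an unadjusted p under 0.05 (27.3% of the members and 23.3% of all genes), and 0 passed the test of strain by sex in room air (0% of all genes), with 5 at an unadjusted p under 0.05 (15.2% of the members and 16.3% of all genes). The room air counts depend on which mice represent the C3HM group. Without replicate 2 of this group, 9 members passed for sex and 7 for strain by sex. That fit left only mice 1 and 3 in the group, the mice that stood apart. Its counts over all genes are not given here.

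The third question was what ATG changed. In room air, 0 members differed between ATG and saline mice by limma (0.0185% of 16228 genes tested did), with 5 at an unadjusted p under 0.05 (15.2% of the members and 6.64% of all genes) and a smallest adjusted p of 0.446 (Plk2, -0.22). In ATG mice hyperoxia raised 27 members (35.8% of 16206 genes) and lowered 4 (26.0%), and 17 members had every mouse in hyperoxia above every mouse in room air (8.82% of all genes) against 0 with every mouse below (4.05%). All 24 members that rose in saline mice also rose in ATG mice, as did Apaf1 (0.62), Bbc3 (0.42) and Mdm4 (0.36). The largest rises were those of Cdkn1a (3.98), Aen (2.84), Ccng1 (2.81), Phlda3 (2.44), Zmat3 (2.19) and Bax (2.15). Of the 5 that fell in saline mice, Sesn1 (-0.95), Rrm2b (-0.51), Pmaip1 (-0.38) and Xpc (-0.29) fell and Fdxr gave -0.21. Cdkn1a changed by 3.98 in ATG mice and 3.95 in saline mice, and the difference of 0.03 had a 95% interval from -0.18 to 0.25.

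Compared within hyperoxia, 7 of 33 members passed and all 7 were higher in ATG mice (3.89% of 15860 genes were higher). Over all genes 617 were higher and 251 lower, and median ratio scaling made this 262 and 377. In the same comparison 2 of 4 alveolar macrophage markers (median -0.78) and 2 of 5 endothelial markers were lower in ATG mice. The alveolar macrophage sum was 254 to 1775 FPKM in saline and 82.8 to 1664 FPKM in ATG mice, and the endothelial sum 703 to 1612 and 709 to 1471 FPKM. None of these markers was at 0 in all mice, and their part in the ATG results was not tested. Trp53 was at 31.7 to 50.3 FPKM in ATG mice (median 41.3, n = 12) against 28.5 to 39.7 FPKM in saline mice (0.34 ± 0.06, adjusted p = 0.00588 by limma). Rps27l was at 599 to 770 FPKM (median 710) against 496 to 638 FPKM (0.32 ± 0.05, adjusted p = 0.00438 by limma), and Bax at 242 to 321 FPKM (median 287) against 202 to 317 FPKM (0.24 ± 0.05, adjusted p = 0.00933 by limma). The arms overlapped for every one of the 7, and the ratios of mean FPKM lay between 1.18 and 1.28. Triap1 (0.24, adjusted p = 0.0124), Tnfrsf10b (0.29, adjusted p = 0.0265), Aen (0.25, adjusted p = 0.0329) and Ak1 (0.33, adjusted p = 0.0397) also passed in limma. Trp53, Bax and Rps27l passed under all 6 alternatives and without any single mouse. Triap1 was lost in the fit of all 48 mice (adjusted p = 0.0521), Aen in that fit, after either scaling and without any 1 of 7 single mice, and Ak1 in 5 of 6 alternatives. Tnfrsf10b was lost after median ratio scaling, which left 4 members.

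**Figure D4:**
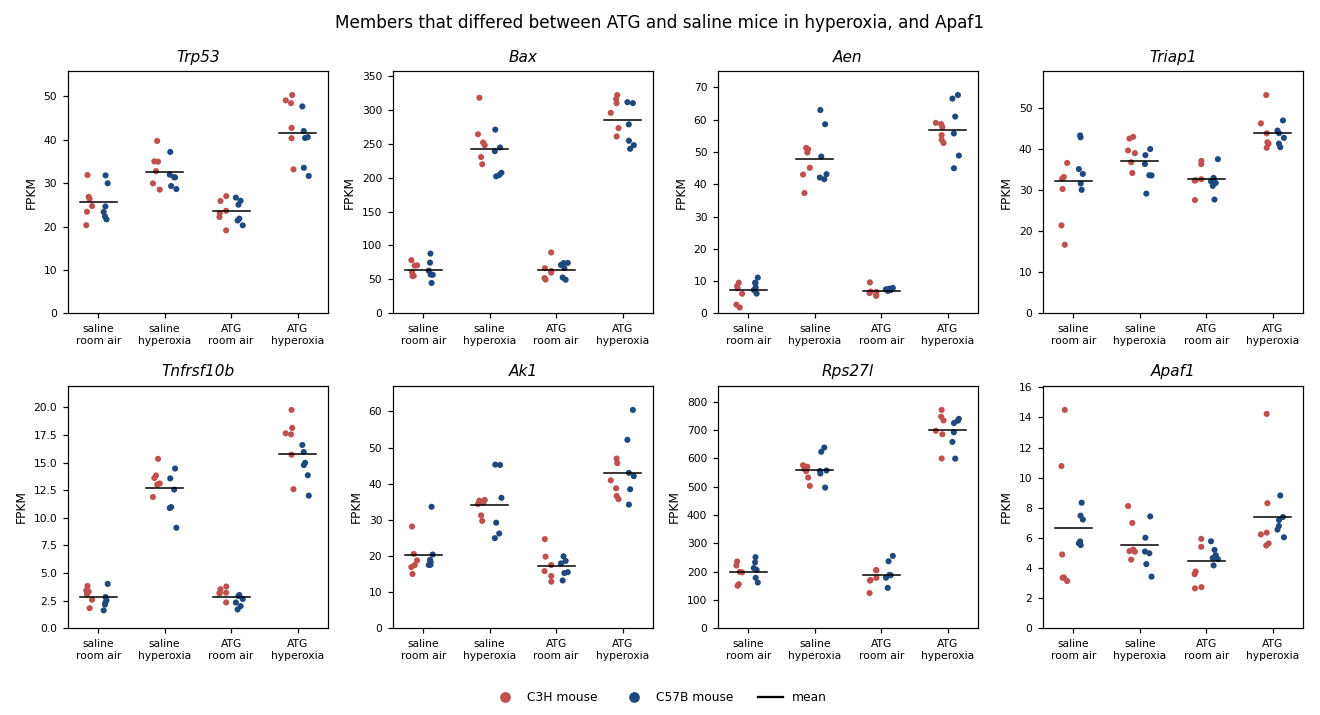
FPKM of the 7 members that were higher in ATG than in saline mice in hyperoxia, and of Apaf1, in each mouse of the 4 arms, with C3H in red, C57B in blue and arm means as lines. Trp53 has medians of 31.7 FPKM in saline and 41.3 FPKM in ATG mice in hyperoxia, the ranges of these arms overlap in every panel, and 2 C3H saline mice in room air (14.5 and 10.8 FPKM) stand high for Apaf1.

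The hyperoxia effect itself was more positive in ATG mice for 5 members (1.56% of 16994 genes had a more positive effect). Over all genes the difference, ATG minus saline, was positive for 265 and negative for 205, and after median ratio scaling for 177 and 363. It was negative for 3 of 4 alveolar macrophage markers (median -1.44) and 2 of 5 endothelial markers. For Trp53 it was larger by 0.45 ± 0.10 (adjusted p = 0.0101 by limma): ATG mice in room air had 19.1 to 27.0 FPKM, so that Trp53 rose by 0.79 in ATG mice with no overlap of the arms. Rps27l (0.42 ± 0.11, adjusted p = 0.0283), Plk2 (0.35 ± 0.10, adjusted p = 0.0357), Ak1 (0.55 ± 0.15, adjusted p = 0.0403) and Apaf1 (0.77 ± 0.22, adjusted p = 0.0455) passed in limma. These differences include lower values of ATG mice in room air, none past the threshold there. ATG minus saline in room air was -0.11 for Trp53, -0.11 for Rps27l, -0.22 for Plk2, -0.22 for Ak1 and -0.41 for Apaf1. Plk2 and Apaf1 did not pass for ATG against saline mice in hyperoxia. Trp53 passed under all 6 alternatives and without any single mouse. Without mice 1 and 3 the values of Apaf1 (0.48, adjusted p = 0.146), Ak1 (0.57, adjusted p = 0.0599) and Rps27l (0.41, adjusted p = 0.0548) no longer passed, whereas Triap1 did (0.34, adjusted p = 0.0221). Plk2 was lost after median ratio scaling (0.31, adjusted p = 0.0507), as were Rps27l (adjusted p = 0.0688) and Apaf1 (adjusted p = 0.0765). After quantile normalization Apaf1 (adjusted p = 0.0942) and Ak1 (adjusted p = 0.0502) were lost. Without the filter on low values Apaf1 (adjusted p = 0.0751), Ak1 (adjusted p = 0.0638) and Plk2 (adjusted p = 0.0501) were lost, all in limma. Leaving out 1 of the 48 mice at a time lost the call of Apaf1 in 31 cases, Ak1 in 21, Plk2 in 17 and Rps27l in 1. For Mdm2 the difference was 0.21, with a 95% interval from -0.02 to 0.45.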

How the data were processed

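The authors extracted total RNA from lung, prepared poly(A)-selected libraries, and, per the submitters' processing notes, used GSNAP, SAMtools, Cufflinks and the mm10 build to derive FPKM. The deposited table holds these FPKM values for 47561 genes in 48 mice. The annotation is not given in the sources used here. 1 gene with failed estimates was dropped, and genes on X, Y and the mitochondrial genome are listed at 0 in all mice, which includes no member. Depth is unknown, so precision comes from the spread between mice.

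Groups came from the sample labels. Genes that reached an FPKM of 1 in 3 or more mice of a fit were kept, and their log2(FPKM + 1) went into limma 3.58.1 (R 4.3.3) with a mean for each group and an eBayes trend. Benjamini-Hochberg adjustment ran over every gene kept, with a threshold of 0.05. Fits used the 24 saline mice, the 24 ATG mice, the 24 mice of each air, all 48, or the 12 saline mice in room air. The fits were tested on simulated data. Every member was named; values of all mice were given for Trp53, Mdm2, Cdkn1a and the members past the threshold with the 8 largest rises and 4 largest falls in saline mice, and elsewhere for members past the threshold. Other lists gave at most 4 rises and 4 falls, and 1 of these genes is not reported here. Some further members with values were added after seeing them. The members and lists were chosen with earlier results of these data known. Alternatives were a pseudocount of 0.1, no filter, quantile normalization, median ratio scaling, no trend, all 48 mice, and each mouse left out. Coordinates are from GENCODE M21 (GRCm38), and 33 of 33 members matched.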

Additional observations from a re-analysis of the deposited data

Results flagged for a closer look

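The effect of hyperoxia differed between strains, by a test of the difference itself, for 3 of 33 members. Over all genes tested 11.5% passed this test, so the count is not particular to the members. The C3H minus C57B difference in log2 change was -0.91 for Plk3, 0.99 for Polk and 0.87 for Trp53inp1, and none of the 3 passed without mice 1 and 3 of the C3HM saline room air group.

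The effect differed between ATG and saline mice, again by a direct test, for 5 members (1.56% of all genes had a more positive effect). Each had the more positive change in ATG mice: Trp53 (0.45), Plk2 (0.35), Apaf1 (0.77), Ak1 (0.55) and Rps27l (0.42). Plk2 and Apaf1 did not pass for ATG against saline mice in hyperoxia. Trp53 and Plk2 passed also without mice 1 and 3, and the other members did not.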

How the results depend on the processing

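Over the alternatives other than leaving out a single mouse, the direction and side of the threshold held for 332 of the values of the members followed one by one (all members for hyperoxia in saline mice, and for the other comparisons those that passed), 37 lost their call and 1 gained one. Members that had not passed also did so under single alternatives, such as Pmaip1 and Epha2 for the strain difference with median ratio scaling, Bbc3, Pmaip1, Triap1 and Rrm2b for the same difference in the fit of all 48 mice, and Phlda3 for ATG in hyperoxia in that fit. The counts of members that rose in hyperoxia moved little (23 to 24 in saline mice). Other counts moved, and the cause was not tested. Counts over all genes are given below for quantile normalization and median ratio scaling only. Under the other alternatives the member counts cannot be set against all genes. Without the filter on low values, 3 members fell in saline mice and 2 passed the test of an ATG difference. With quantile normalization, 5 members passed for the strain difference and 3 for the ATG difference. Over all genes this normalization gave 862 positive and 893 negative for the strain difference, and 182 and 342 for the ATG difference. Median ratio scaling gave 5 for the strain difference, 8 for strain in hyperoxia, 4 for ATG in hyperoxia and 2 for the ATG difference. Over all genes this scaling gave 926 positive and 1066 negative for the strain difference, and 2269 and 2444 for strain in hyperoxia. For ATG in hyperoxia it gave 262 and 377, and for the ATG difference 177 and 363. The fit of all 48 mice gave 7 for the strain difference, 2 for the sex difference, 8 for strain in hyperoxia, 7 for strain, 6 for sex and 2 for strain by sex in room air. Without the trend 1 passed for sex in room air. Without mice 1 and 3, an alternative chosen after seeing the data, 1 passed for the strain difference and 3 for the ATG difference. The direction reversed for Bbc3 with quantile normalization (-0.065) and median ratio scaling (-0.051) and for Apaf1 without mice 1 and 3 (0.14), none of them called.

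Leaving out each mouse in turn gave 3 to 4 falls in saline mice, 1 to 7 members for the strain difference, 0 to 3 for the sex difference, 3 to 9 for strain in hyperoxia, 4 to 8 for ATG in hyperoxia, 1 to 6 for the ATG difference, and, in room air, 2 to 9 for strain, 0 to 9 for sex and 0 to 7 for strain by sex. The highest room air counts came without replicate 2 of the C3HM saline room air group, which left mice 1 and 3 in it. Counts over all genes for the fits with a mouse left out are not given here. In saline mice Mdm4 ranged from -0.031 to 0.15, Bbc3 from -0.055 to 0.069. Median ratio scaling moved the median of all genes by over 0.1 for the strain difference (0.15 to 0.00), the sex difference (0.14 to 0.01), strain by sex (-0.15 to -0.01), hyperoxia in C3H (0.10 to -0.02) and sex in room air (-0.12 to -0.01). No paired analysis was possible because each mouse has its own number and no number is shared between groups.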
